A study of Mus musculus with 2 samples.

Results

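Heterotrimeric G proteins carry signals from receptors that span the membrane to enzymes and channels inside the cell, and the genes described here encode their alpha, beta and gamma subunits and the RGS proteins that switch them off. The members were protein-coding rows chosen by their whole mouse gene symbol. It had to be Gna with letters or digits, Gnb with 1 to 5, or Gng, Gngt or Rgs with a number. Gnas and Rgs5 were left out by the rule. This gave 52 genes of 21474 protein-coding genes: 15 alpha, 5 beta and 12 gamma genes and 20 RGS genes. They were measured in total RNA from the midbrain of newborn mice (postnatal day 0) of the strain B6NTac;B6NCrl/Lap, healthy, males and females pooled, with no treatment or engineered allele given in the labels. There was 1 group of 2 libraries, which the labels number as biological replicates 1 and 2. Replicate 1 came from a pool of 15 animals and replicate 2 from a pool whose size the labels do not give, so the spread between them is that of pools and not of animals. With 1 group there was no contrast to test, and what follows gives levels in each library, their order, and the difference between the libraries.

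The libraries held 46685706 and 72779229 estimated counts, in replicates 1 and 2, so values in replicate 2 rest on more reads. All 6 midbrain markers examined were detected, from Meis2 at 25.8 and 26.9 TPM to Th, the enzyme that makes the precursor of dopamine, at 5.09 and 4.97 TPM. TPM, the transcript abundance scale of the deposited files, divides each count by the length of the transcript and scales each library to the same total, and a gene is called detected here at 1 TPM or more in both libraries. Neuron, astrocyte and progenitor, oligodendrocyte lineage, microglia and endothelial markers were all detected too, so a level below is a mean over many cell types, and more cells of a type and more RNA per cell cannot be told apart. Some marker lists differed between the libraries: the 4 choroid plexus markers summed to 16.4 TPM in replicate 1 and 166 in replicate 2, nearly all of it Ttr, and the 4 Purkinje cell markers to 10.2 and 19.3.

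In the resting state an alpha subunit holds GDP and a beta-gamma dimer. An activated receptor makes alpha release GDP and take up GTP, after which alpha and beta-gamma part and each act on targets such as adenylyl cyclase, phospholipase C beta and GIRK potassium channels. RGS proteins speed the hydrolysis of GTP by alpha and so end the signal. In the midbrain these proteins serve dopamine, opioid, GABA, serotonin and muscarinic receptors. Alpha subunits fall into the Gi/o class, which inhibits adenylyl cyclase, the Gs class, which stimulates it, the Gq class, which activates phospholipase C beta, and the G12 class, which acts on the actin cytoskeleton.

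The last few codons of an alpha subunit encode a part that meets the receptor. Pertussis toxin blocks Gi/o proteins by modifying a cysteine at the fourth residue from the end. The last 24 coding bases of the detected alpha genes are given below in order of level, stop codon included and read 5′ to 3′, with the codon of that residue in capitals. They come from the GENCODE transcripts on GRCm38, and Gnal is not among them.
Gnao1, first end (chr8:93967032-93967055, + strand): ctccggggcTGCggcttgtactga
Gnao1, other end (chr8:93956229-93956252, + strand): ctacggggcTGTggactctactga
Gnai2 (chr9:107615635-107615658, - strand): ctgaaggacTGTggcctcttctga
Gnaz (chr10:75015189-75015212, + strand): ctcaagtacATCggcctttgctga
Gnaq (chr19:16383371-16383394, + strand): ctgaaggagTACaatctggtctaa
Gna12 (chr5:140760549-140760572, - strand): ctgaaagacATCatgctgcagtga
Gna11 (chr10:81530795-81530818, - strand): ctgaaggagTACaacctggtgtga
Gnai1 (chr5:18267019-18267042, - strand): ctaaaagacTGTggtctcttctaa
Gnai3 (chr3:108109422-108109445, - strand): ttaaaggaaTGTgggctttattga
Gna13 (chr11:109396463-109396486, + strand): ctgaagcagCTCatgctgcagtga
The cysteine codons TGT and TGC stand in Gnao1, Gnai1, Gnai2 and Gnai3 among the detected genes, while Gnaz, of the same class but resistant to the toxin, has ATC there.

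A gamma subunit ends in a CAAX box, a cysteine followed by 3 residues, and the last of these decides which lipid is attached. Leucine calls for the longer geranylgeranyl lipid, and serine for farnesyl. The last 24 coding bases of the detected gamma genes follow in order of level, with the last codon before the stop in capitals.
Gng2 (chr14:19875807-19875830, - strand): aagttcttctgcgccatcCTTtaa
Gng4 (chr13:13825352-13825375, + strand): aagttcttctgcaccatcCTCtaa
Gng10 (chr4:59039329-59039352, + strand): cccaggtcctgtgctctaCTTtga
Gng3 (chr19:8838143-8838166, - strand): aagttcttctgtgcgctcCTCtga
Gng5 (chr3:146503362-146503385, + strand): cagaaagtctgctcctttTTGtag
Gng12 (chr6:67017566-67017589, + strand): aagaagacctgcatcatcTTAtag
Gng13 (chr17:25719009-25719032, + strand): aaggccaagtgcaccatcCTAtga
Gng7 (chr10:80951621-80951644, - strand): aaaaagccttgcataattCTCtag
Gng11 (chr6:4008137-4008160, + strand): aagggcagctgtgtcattTCAtaa
Gng11 alone of these 9 ends in a serine codon, TCA, and it was also the lowest of the 9.

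Of the 52 genes, 37 were detected, 23 stood at 10 TPM or more in both libraries, and the other 15 were below 1 TPM in both. Over all protein-coding genes 53.8% were detected and 18.4% reached 10 TPM in both libraries. The median level was 9.02 TPM over the 52 genes and 1.78 over all protein-coding genes, and over detected genes alone 16.0 and 7.32. Detection was 10 of 15 for alpha, 4 of 5 for beta, 9 of 12 for gamma and 14 of 20 for RGS genes.

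**Figure D1:**
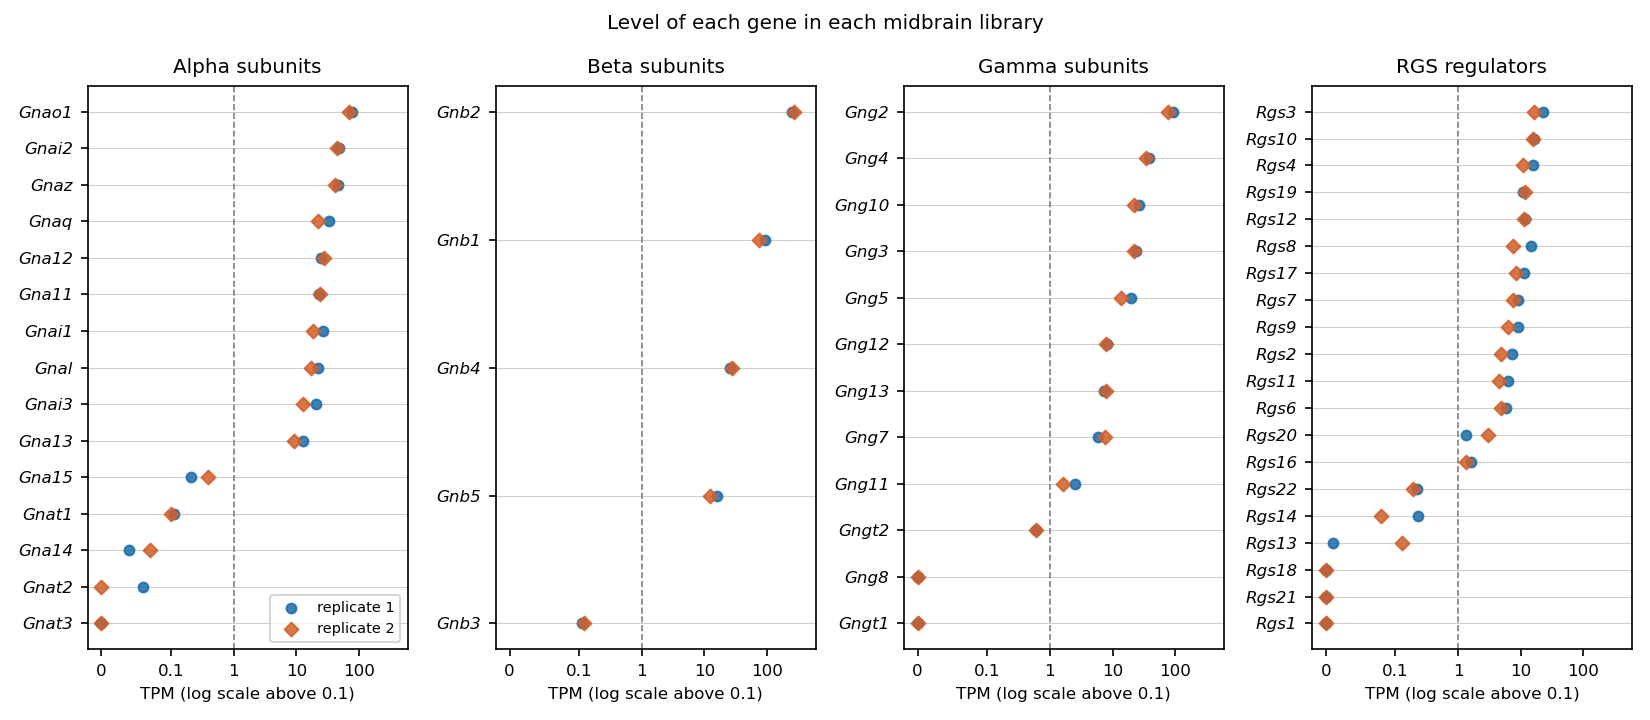
TPM of each of the 52 genes in replicate 1 (circles) and replicate 2 (diamonds), by family and in order of mean level, on an axis that is logarithmic above 0.1 TPM and linear below. The dashed line marks 1 TPM; Gnb2 stands highest of all, and 15 genes lie left of the line in both libraries.

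The alpha members were led by Gnao1, which encodes the alpha subunit of Go, the main G protein of neurons. Gnao1 (chromosome 8, 93809966 to 93969388) stood at 78.2 TPM in replicate 1 and 68.5 in replicate 2 (73.4 ± 6.87, SD, n = 2). It was above every other alpha member in both libraries and carried 23.7% ± 0.429 (SD, n = 2) of the summed alpha TPM. Gnas, left out by the rule, is not in this order or in any alpha sum or share given here. Gnai2 stood at 47.7 and 44.2 TPM, and Gnaz, whose protein turns over GTP slowly, at 46.1 and 40.9 TPM. Gnai2 stood a little above Gnaz in each library, though their ranges over the 2 libraries overlapped. The other Gi genes were lower, Gnai1 at 26.3 and 18.8 TPM and Gnai3 at 20.7 and 13.0 TPM.

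Within a library, Gnai2 exceeded Gnai3 by 1.20 and 1.76 on the log2 scale in replicates 1 and 2, past the 2-fold step in both. These ratios are of TPM + 0.1, and a pair counts as different only where it is at least 2-fold apart the same way in both libraries. Gnai2 exceeded Gnai1 by 0.86 and 1.23, which passed 2-fold in replicate 2 alone. Gnao1 exceeded Gnai2 by 0.71 and 0.63 and Gnaz by 0.76 and 0.74, both under 2-fold in each library. Counting only transcripts annotated as protein-coding, Gnao1 exceeded Gnaz by 1.31 and 1.22 and the pair passed, since a processed transcript held 34.5% and 34.9% of the Gnaz TPM. The Gi/o class, with Gnaz, Gnat1, Gnat2 and Gnat3, held 65.5% and 64.9% of alpha TPM. The 4 detected genes with a cysteine codon at the toxin's residue, with Gnat1, Gnat2 and Gnat3, which share it, held 51.7% and 50.6%.

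Gnao1 makes proteins with alternative ends, known as GoA and GoB, by a choice of last exons. The listed transcripts hold coding sequences of 1065 bases each, and these differ at 88 bases, the first at coding base 738. Transcripts Gnao1-201 and Gnao1-203, which share the first of the coding ends printed above, together held 87.5% of the gene's TPM in replicate 1 and 81.2% in replicate 2. Gnao1-207, with the other end, held 8.49% and 6.45%. The remainder was mostly transcripts with a retained intron, such as Gnao1-211 at 1.59% and 4.67%.

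The Gq class was represented by Gnaq and Gna11, which both activate phospholipase C beta and are present in most cells. Gnaq stood at 33.0 and 21.95 TPM and Gna11 at 22.9 and 23.8 TPM. Gnaq was above Gna11 in replicate 1 by 0.52 on the log2 scale and below it in replicate 2 by 0.11 (-0.11), so their order was not resolved. The other members of the class, Gna14 and the blood cell gene Gna15, were not detected, at 10 and 32 counts and 23 and 92 counts.

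Both G12 class genes were detected. Gna12 stood at 24.5 and 27.8 TPM and Gna13 at 13.0 and 9.25 TPM. Gna13 was the lower in both libraries, by -0.91 and -1.58 on the log2 scale, which passed 2-fold in replicate 2 only. Of the Gs class only Gnal was a member, the gene of Golf, which replaces Gs in olfactory neurons and striatal projection neurons. Gnal (chromosome 18, 67088216 to 67226792) stood at 21.8 and 17.0 TPM with 8907 and 12679 counts. Among 4 markers of striatal projection neurons, Foxp1, also found in other neurons, stood at 14.3 and 13.1 TPM, while Drd1 stood at 0.70 and 0.39 TPM, Adora2a at 0.98 and 0.46, and Ppp1r1b at 0.39 and 0.92. The transcript with the longer coding sequence, Gnal-201 with 1347 bases, held 98.0% of Gnal TPM in replicate 1 and 78.3% in replicate 2. Gnal-202, with 1146 coding bases, held 1.99% and 21.7%, or 0.43 and 3.70 TPM.

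The transducins carry light signals in photoreceptors and gustducin carries taste. Gnat1 had 7 and 29 counts and 0.11 and 0.10 TPM, Gnat2 had 4 and 0 counts, and Gnat3, the gustducin gene, had no count in either library. Counts of 3 would have given Gnat3 a TPM of 0.0388 in replicate 1 and 0.0210 in replicate 2, which bounds its level by counting error only. None of the 5 photoreceptor markers was detected, at a sum of 0.14 and 0.06 TPM, and none of the 4 taste markers, at 0.75 and 0.79 TPM.

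On the TPM scale the beta subunits were led by Gnb2, and on the count scale Gnb1 and Gnb2 each led in 1 library. Beta subunits are propeller-shaped proteins that stay bound to gamma, and Gnb1 to Gnb4 are close relatives. Over coding sequences of 1023 bases each, Gnb1 was identical to Gnb2 at 77.0% of bases, to Gnb4 at 76.9% and to Gnb3 at 75.9%. Gnb2 (chromosome 5, 137528127 to 137533510) stood at 246 and 268 TPM (257 ± 15.4, SD, n = 2), 67.4% ± 3.64 of beta TPM. Gnb1 (chromosome 4, 155491361 to 155559269) stood at 92.0 and 74.5 TPM, Gnb4 at 25.2 and 27.5 TPM, and Gnb5 at 15.7 and 12.4 TPM. No neighbours in this order overlapped over all transcripts, but Gnb4 and Gnb5 changed places over protein-coding transcripts. Gnb3, the beta subunit of cone photoreceptors, was not detected, at 13 and 25 counts.

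The lead of Gnb2 rested on which transcripts were counted. Its largest transcript was Gnb2-213, 712 bases long and annotated as holding a retained intron, with 49.6% and 52.8% of the gene's TPM, or 122 and 141 TPM. In counts Gnb2 had 12419 and 26225 and Gnb1 16917 and 20257, so Gnb1 was higher in replicate 1 and Gnb2 in replicate 2. Over all transcripts Gnb1 was below Gnb2 by -1.42 and -1.84 on the log2 scale. Over protein-coding transcripts the difference was -0.51 and -1.27 and no longer passed in both libraries. Over transcripts in the consensus coding set (CCDS) alone, a choice made after seeing the data, it turned to 4.15 and 3.22 in favour of Gnb1, because the Gnb2 transcripts of that set held 4.50 and 5.16 TPM. Another gene, Epo, annotated on the same strand, overlaps the span of Gnb2. The protein-coding transcripts that held most of the rest, Gnb2-215 and Gnb2-204, are outside that set.

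Gnb4 also had a large part of its TPM on transcripts not annotated as coding. Its transcript Gnb4-207, also annotated with a retained intron, held 44.1% and 66.2% of its TPM, and its protein-coding transcripts 6.81 and 4.98 TPM. Gnb1 then exceeded Gnb4 by 3.56 and 3.27 on the log2 scale, against 1.86 and 1.43 over all transcripts. Both values passed 2-fold in the same direction. Against Gnb5, at 15.7 and 12.4 TPM and all protein-coding, the order turned: Gnb4 was above it in both libraries over all transcripts and below it in both over protein-coding ones.

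The sum of beta TPM therefore moved against the sums of the partner subunits with the choice of transcripts. All transcripts gave 379 and 382 TPM for beta, 335 and 286 for alpha and 227 and 195 for gamma. Protein-coding transcripts gave 220 and 185 for beta, 311 and 262 for alpha and 226 and 194 for gamma. The log2 ratio of beta over alpha went from 0.18 and 0.42 to -0.50 and -0.51, a change of sign. That of gamma over alpha stayed below 0 in both, at -0.56 and -0.55, then -0.46 and -0.44. The alpha sums leave out Gnas, so these ratios and their signs hold for the members only.

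**Figure D2:**
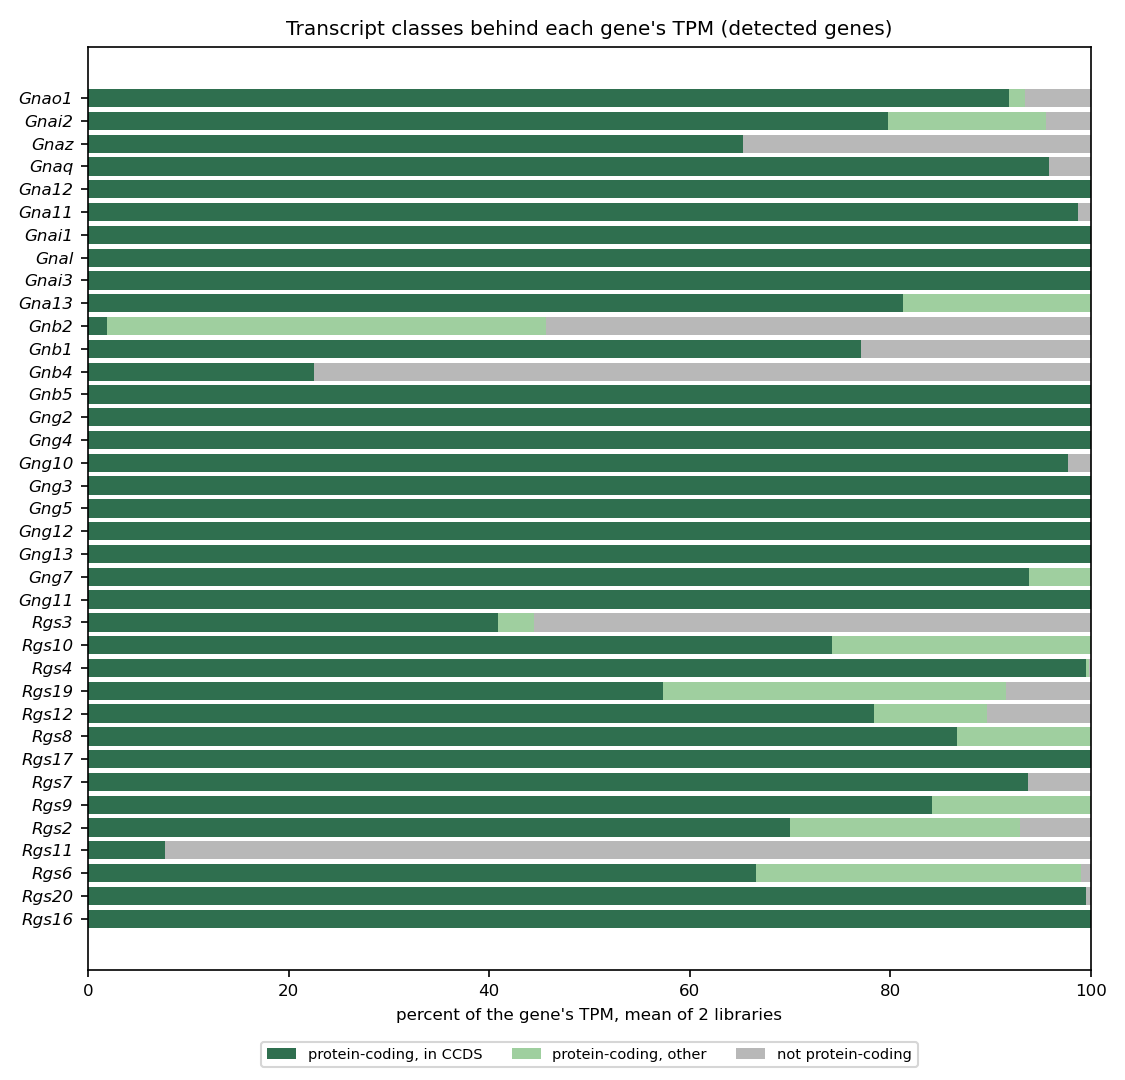
Share of each detected gene's TPM, as the mean of 2 libraries, held by protein-coding transcripts in CCDS (dark green), other protein-coding transcripts (light green) and transcripts not annotated as protein-coding (grey). Most genes are nearly all green; Gnb2, Gnb4, Rgs3 and Rgs11 carry the largest grey parts.

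Of the 37 detected genes, 33 had a protein-coding transcript as their largest in both libraries, and 34 had the same largest transcript in both. The exceptions to the first were Gnb2, Gnb4, Rgs3 and Rgs11. By count instead of TPM, which does not weight short transcripts up, 36 of 37 had a protein-coding leader in both libraries. Only 7 of the 37 genes had a single transcript listed, among them Gnb5. For 13 of the 37 another gene or small RNA annotated on the same strand overlaps their span. The counts of these 13 were whole in both libraries, without the fractions that reads shared between genes leave.

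The gamma genes were led by Gng2. Gamma subunits are small proteins that anchor the dimer to the membrane through the lipid described above. Gng2 (chromosome 14, 19872559 to 19977627) stood at 93.8 and 77.0 TPM (85.4 ± 11.9, SD, n = 2) and carried 40.5% ± 1.29 of gamma TPM. Gng4 stood at 37.9 and 34.2 TPM, Gng10 at 26.9 and 22.2 TPM, and Gng3, a gene of neurons, at 23.7 and 22.2 TPM. Gng2 exceeded Gng4 by 1.31 and 1.17 on the log2 scale and the pair passed, as did Gng3 with Gng2 at -1.98 and -1.79. The ranges of Gng10 and Gng3 overlapped.

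The lower gamma genes were Gng5 at 19.8 and 13.5 TPM, Gng12 at 8.05 and 7.94 TPM and Gng7 at 5.88 and 7.47 TPM. Gng7 is the usual partner of Golf in the adult striatum, and Gng2 exceeded it by 3.97 and 3.35 on the log2 scale. Gng13 stood at 7.34 and 7.75 TPM from only 43 and 74 counts, because its effective length was 76.4 and 67.3 bases, so its level rests on few reads.

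Gng11, the farnesylated gene, stood at 2.48 and 1.61 TPM. Among the genes not detected, Gngt2, a gamma subunit of cones, stood at 0.61 and 0.60 TPM from 13 and 24 counts. Gngt1, of rods, and Gng8, known from olfactory and vomeronasal neurons, had no count. The 9 gamma genes that end in a leucine codon, of which 8 were detected, held 98.6% and 98.9% of gamma TPM. The 3 that end in a serine codon, Gng11, Gngt1 and Gngt2, held 1.36% and 1.14%. All 5 genes of gamma prenylation and processing were detected. Fnta, the subunit shared by the enzymes that attach either lipid, stood at 14.9 and 12.4 TPM, Fntb, specific to farnesyl, at 7.10 and 6.30, and Pggt1b, specific to geranylgeranyl and the lowest of the 5, at 3.14 and 2.10. Rce1, which removes the residues after the cysteine, stood at 6.92 and 8.18 TPM and Icmt, which then methylates it, at 7.37 and 7.12.

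The RGS members, without Rgs5, summed to less TPM than any of the subunit families. Their sum was 145 and 114 TPM, and alpha exceeded it by a log2 ratio of 1.21 and 1.32. RGS proteins are grouped by structure: R4 proteins are small, R7 proteins bind Gnb5, R12 proteins include large scaffolds, and RZ proteins act on Gz. The R4 genes held 43.2% and 35.9% of RGS TPM, R7 genes 20.8% and 20.2%, R12 genes 19.6% and 23.4%, and RZ genes 16.3% and 20.4%. Of 13 neighbours in the order of level 12 had overlapping ranges and 6 changed places between the libraries.

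In the R4 group, Rgs3 stood highest at 23.1 and 16.4 TPM (19.8 ± 4.77, SD, n = 2), or 15.1% ± 1.15 of RGS TPM. Its counts, alone among the detected genes, were not whole (2316.17 and 3840.57), which means that some of its reads also fitted another gene. Its largest transcript in replicate 1 was Rgs3-210, a processed transcript with 45.9% of the TPM, and in replicate 2 the coding Rgs3-204 with 42.6%. Its protein-coding transcripts held 8.71 and 8.41 TPM, below Rgs4, so the lead of Rgs3 did not hold for coding transcripts. Rgs4, abundant in brain and acting on Gi/o and Gq, stood at 16.0 and 10.9 TPM, almost all of it protein-coding.

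Rgs8 stood at 14.5 and 7.45 TPM and Rgs2, which prefers Gq, at 7.33 and 4.84 TPM. Rgs4 exceeded Rgs2 by 1.11 and 1.16 on the log2 scale and passed. Rgs8 is known from Purkinje cells, but it stood lower in replicate 2, where the Purkinje markers summed higher; the part of those cells in its level was not tested. Rgs16 stood at 1.61 and 1.32 TPM. The remaining R4 genes were near or at 0: Rgs13 had 1 and 23 counts, Rgs18, a gene of platelets, 0 and 1, and Rgs1, of lymphocytes, and Rgs21, of taste cells, none. None of the 4 lymphocyte markers was detected, at a sum of 0.50 and 0.79 TPM. Of 5 platelet markers 2 were detected, Pf4 at 6.73 and 5.69 TPM and Gp1bb at 15.0 and 7.92. The counts of Gp1bb, like those of Rgs3, were not whole (1105.37 and 1359.82). Itga2b stood at 1.01 and 0.47 TPM, Gp9 at 0.27 and 0, and Ppbp at 0.07 and 0.

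All 4 R7 genes were detected. Their proteins are stable only when bound to Gnb5, which sets them apart from the other RGS proteins. Rgs7 stood at 9.11 and 7.43 TPM, Rgs9 at 8.98 and 6.19, Rgs11 at 6.31 and 4.58, and Rgs6 at 5.79 and 4.86. Rgs7 and Rgs9 were 0.02 and 0.26 apart on the log2 scale, and Rgs7 exceeded Rgs6 by 0.64 and 0.60, neither past 2-fold.

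Rgs11 was carried by transcripts with retained introns, Rgs11-203 first in replicate 1 with 33.5% and Rgs11-211 in replicate 2 with 41.2%. Its coding transcript held 0.58 and 0.28 TPM. Rgs7 then exceeded Rgs11 by 3.64 and 4.25 on the log2 scale over protein-coding transcripts, against 0.52 and 0.69 over all.

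Rgs9 has a short form known from the retina and a long form known from the striatum. The transcript Rgs9-204, with a coding sequence of 1455 bases, held 44.1% and 32.9% of its TPM, and Rgs9-201, with the longest at 2028 bases, 34.7% and 56.6%. Another protein-coding transcript, Rgs9-203 with 699 coding bases, held 19.0% and 10.5%. The leading transcript thus differed between the libraries.

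Gnb5 and the summed R7 genes stood in nearly the same ratio in both libraries. The R7 genes summed to 30.2 and 23.1 TPM against 15.7 and 12.4 for Gnb5, a log2 ratio of 0.94 and 0.90 (0.92 ± 0.03, SD, n = 2). Over protein-coding transcripts the R7 sums were 23.7 and 18.4 and the ratio 0.59 and 0.57. So close an agreement was not particular to these genes. On the log2 scale Gnb1 over Gnb5 stood at 2.54 and 2.58, and Rgs12 over Rgs10 at -0.49 and -0.47. Other pairs spread more, such as Rgs17 over Rgs20 at 2.94 and 1.45. The single transcript listed for Gnb5 is 1188 bases long, all of it coding, so the Gnb5 level takes in no untranslated ends. Among the membrane anchors of R7 proteins, Gpr158 stood at 4.14 and 3.63 TPM and Rgs7bp at 2.81 and 3.40. The anchors of photoreceptors and bipolar cells, Rgs9bp and Gpr179, stood below 1 TPM.

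Of the R12 genes, Rgs10, a short member, stood at 16.5 and 15.5 TPM and the scaffold Rgs12 at 11.7 and 11.2 TPM. Rgs14, known from hippocampal area CA2 and from lymphocytes, was not detected at 0.23 and 0.08 TPM. The Rgs12 transcript with the longest coding sequence, Rgs12-201 with 4146 bases, held 64.7% and 53.6%. Rgs12 exceeded Rgs14 by 5.16 and 5.97 on the log2 scale.

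The RZ genes were all detected: Rgs19 at 11.1 and 11.9 TPM, Rgs17 at 11.1 and 8.41 and Rgs20 at 1.36 and 3.01. Rgs17 exceeded Rgs20 by 2.94 and 1.45 on the log2 scale, while Rgs17 and Rgs19 were 0.01 and -0.50 apart and changed order. Rgs22, known from testis and outside these groups, stood at 0.22 and 0.19 TPM.

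**Figure D3:**
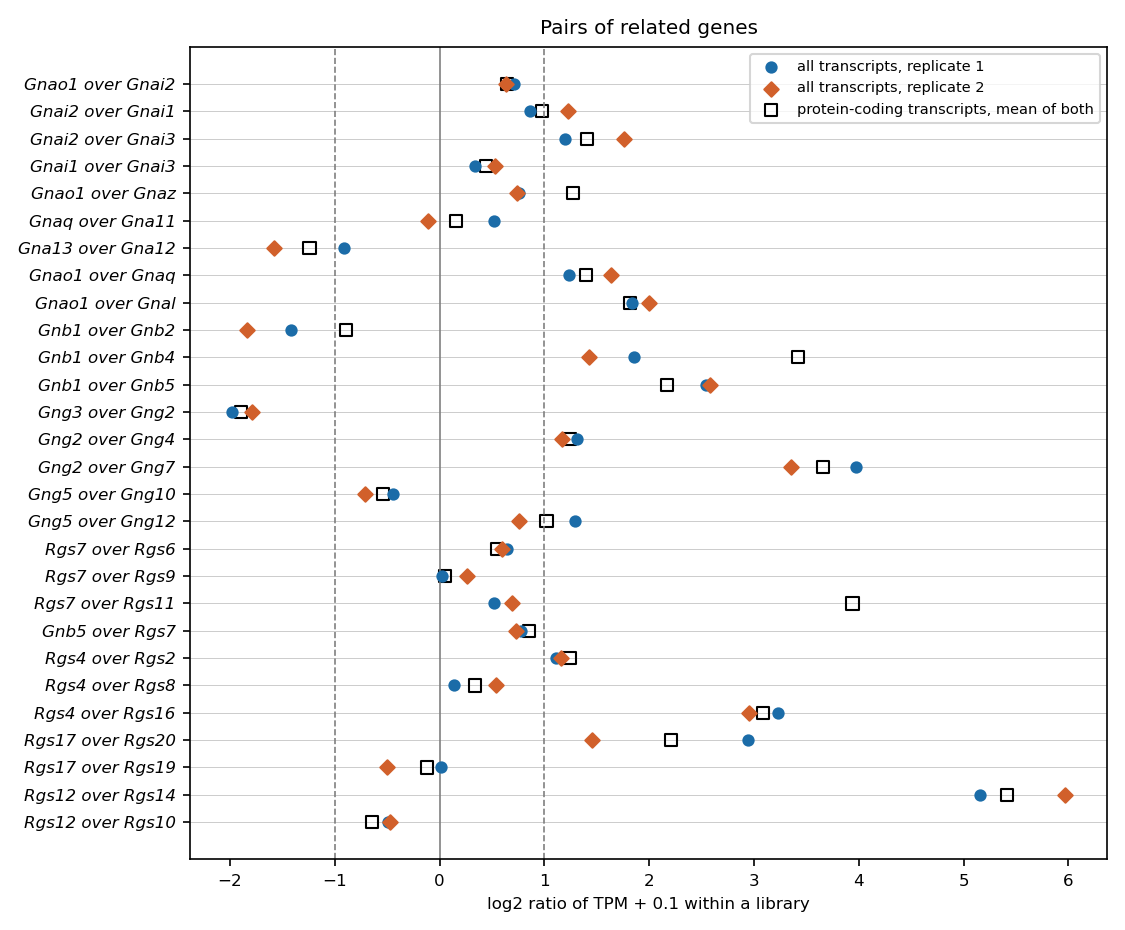
Log2 ratio of TPM + 0.1 for 28 pairs of related genes within replicate 1 (circles) and replicate 2 (diamonds), with the mean over protein-coding transcripts as open squares. Dashed lines mark 2-fold; 13 pairs lie beyond 2-fold on the same side in both libraries, and the squares stand far from the points for Gnb1 over Gnb4 and Rgs7 over Rgs11.

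Of the 28 pairs compared, 13 were at least 2-fold apart the same way in both libraries. The other 15 were not, which does not show that their levels are equal. Only Gnaq with Gna11 and Rgs17 with Rgs19 took opposite directions in the libraries. With protein-coding transcripts 14 pairs passed, of which Gnao1 over Gnaz and Rgs7 over Rgs11 were added and Gnb1 with Gnb2 was lost.

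The promoters of detected and undetected genes differed in CG dinucleotides, which gather in the CpG islands found at most broadly used promoters. RefSeq promoter windows on GRCm38.p6, 250 bases before to 50 after each start, were matched by symbol for 38 of the 52 genes, and the richest window was taken for genes with several. The upstream 250 bases of 3 are shown with CG in capitals, a rich one, a poor one of a detected gene and a poor one of a gene with no counts.
Gnai1 (chr5:18360414-18360663, - strand): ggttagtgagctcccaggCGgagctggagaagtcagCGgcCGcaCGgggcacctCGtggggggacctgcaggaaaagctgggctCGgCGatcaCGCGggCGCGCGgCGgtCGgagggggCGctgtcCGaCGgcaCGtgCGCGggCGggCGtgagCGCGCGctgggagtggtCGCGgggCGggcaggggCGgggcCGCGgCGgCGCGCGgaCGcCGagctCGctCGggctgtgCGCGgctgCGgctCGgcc
Gnb5 (chr9:75306038-75306287, + strand): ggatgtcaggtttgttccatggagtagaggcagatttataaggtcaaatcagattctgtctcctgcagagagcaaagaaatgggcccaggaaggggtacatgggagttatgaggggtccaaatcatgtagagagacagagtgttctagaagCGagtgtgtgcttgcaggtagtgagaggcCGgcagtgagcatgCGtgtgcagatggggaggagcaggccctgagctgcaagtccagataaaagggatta
Rgs21 (chr1:144567668-144567917, - strand): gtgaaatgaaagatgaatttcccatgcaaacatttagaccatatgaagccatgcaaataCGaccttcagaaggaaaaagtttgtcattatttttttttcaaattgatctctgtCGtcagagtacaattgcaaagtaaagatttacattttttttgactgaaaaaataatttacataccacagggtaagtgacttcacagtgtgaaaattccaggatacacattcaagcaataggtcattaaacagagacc
Gnai1 held 53 CG in its 300 bases, the most of the 38 genes, Gnb5 held 5 and Rgs21 held 2.

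Over the 30 detected genes with a window the median was 28 CG, and 26 of them (86.7%) held at least 10. Over the 8 undetected genes the median was 5 CG, the range 0 to 8, and none held 10. The same split runs through all protein-coding genes, with 89.8% of detected and 26.8% of undetected genes at 10 or more and 61.9% of all. The share among detected members was thus near that of detected genes in general. The detected genes under 10 were Rgs3 with 9, Gng2 and Gnb5 with 5, and Gng3 with 2. Gng2 was the highest gamma gene, so a window poor in CG did not go with a low level there.

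**Figure D4:**
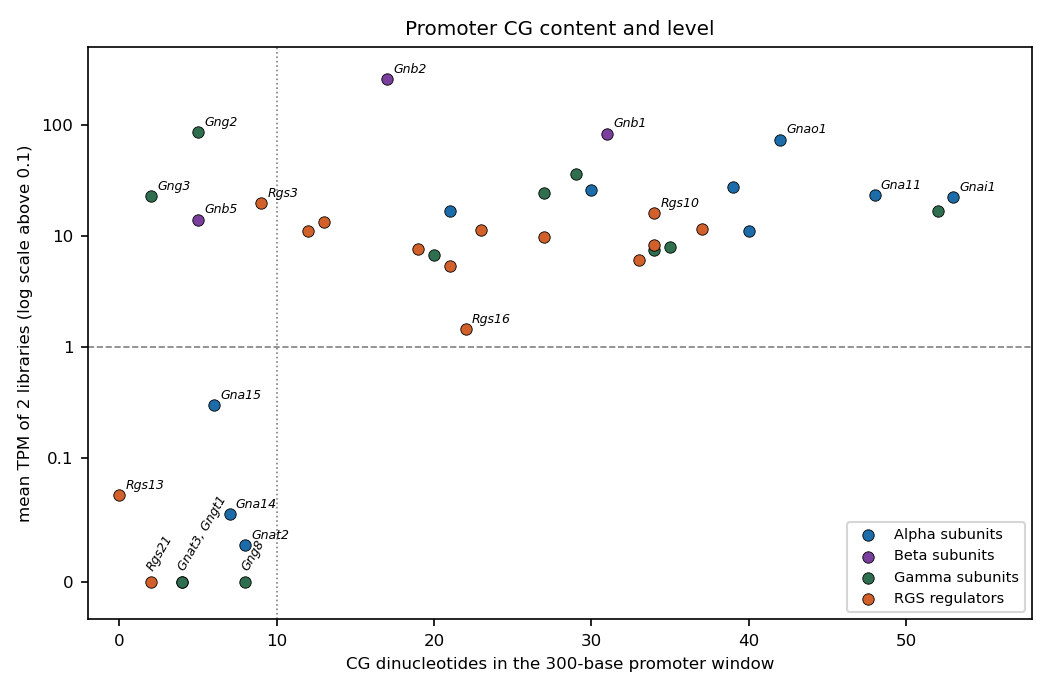
CG dinucleotides in the 300-base RefSeq promoter window against mean TPM of 2 libraries for the 38 genes with a window, coloured by family. The dashed line marks 1 TPM and the dotted line 10 CG; the 8 genes below 1 TPM all lie left of the dotted line, with Gng2, Gng3, Gnb5 and Rgs3 above them.

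The libraries differed little in these genes where the counts were high. Library ratios are of counts scaled by TMM, replicate 2 over replicate 1, where the 2 libraries together hold 10 or more counts. Of 45 genes tested 6 were at least 2-fold apart (13.3%), against 11.5% of 15726 protein-coding genes, a share near the background. Rgs20, Gna14, Gna15, Gnat1 and Rgs13 were higher in replicate 2 and Rgs14 in replicate 1. Over all protein-coding genes 6.89% were 2-fold higher in replicate 2 and 4.58% in replicate 1.

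Of the 37 detected genes 1 was 2-fold apart (2.7%), against 1.0% of detected protein-coding genes. It was Rgs20, with 158 and 524 counts and a log2 ratio of 1.12, and its transcript Rgs20-203 held 0% and 32.6% of the TPM. The other detected genes lay between -0.53 for Rgs8 and 0.62 for Gng7. The median absolute log2 ratio was 0.19, the same as over all detected protein-coding genes. Among the most abundant genes, Gnao1 stood at 0, Gnb1 at -0.34 and Gnb2 at 0.47.

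**Figure D5:**
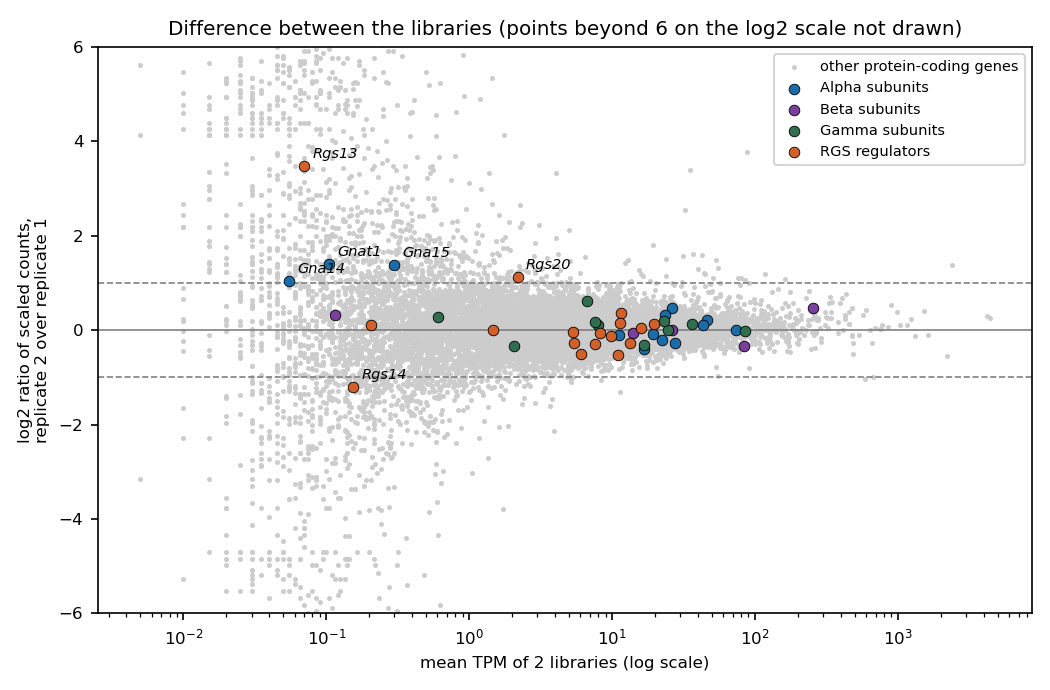
Log2 ratio of scaled counts, replicate 2 over replicate 1, against mean TPM for the members (coloured by family) and other protein-coding genes (grey), with dashed lines at 2-fold. The 6 named genes lie beyond 2-fold, and of these only Rgs20 stands above 1 TPM.

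The genes on either side of the G protein in the pathway were present as well. Of 48 genes in 7 lists, 36 were detected (75.0%, against 53.8% of protein-coding genes), with a median level of 5.27 TPM. Among adenylyl cyclases, which make cyclic AMP, 8 of 10 were detected. They were led by the calcium-stimulated Adcy1 at 29.8 and 26.1 TPM and by Adcy5, the main striatal form, at 15.7 and 14.2, followed by Adcy2 at 9.08 and 9.34 and Adcy3 at 7.86 and 7.10. Adcy4 stood at 0.79 and 0.64 TPM, and Adcy10, the soluble form, had no count.

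Of the 4 phospholipase C beta genes, the targets of Gq, 3 were detected, with Plcb4 at 13.2 and 12.2 TPM, Plcb1 at 11.5 and 9.59 and Plcb3 at 2.39 and 2.37. The taste and blood form Plcb2 stood at 0.11 and 0.45 TPM. Of the 4 GIRK channel genes, opened by beta-gamma, 3 were detected at low levels, Kcnj3 at 5.41 and 5.44 TPM, Kcnj9 at 2.96 and 2.59 and Kcnj6 at 2.87 and 2.24. The heart form Kcnj5 stood at 0.55 and 0.27.

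Of 10 receptor kinase and arrestin genes 6 were detected. Grk2, which beta-gamma recruits to receptors, stood at 28.7 and 45.4 TPM and Grk6 at 13.1 and 11.2, and the arrestins Arrb1 and Arrb2 at 25.2 and 29.8 and at 21.3 and 21.8. Grk4 stood at 0.89 and 0.54 TPM, and the photoreceptor genes Grk1, Sag and Arr3 were at 0 TPM. Of 11 folding and cycle factors 9 were detected. Gpsm1, which binds Gi alpha in its GDP state, stood at 63.7 and 52.4 TPM. The alpha chaperones Ric8a and Ric8b stood at 23.6 and 13.4 and at 11.01 and 7.48, and Ccdc88a, which activates Gi without a receptor, at 19.5 and 13.7. Gpsm3 stood at 0.95 and 0.23 TPM, and Pdc, the phosducin of photoreceptors, had no count. Among the 43 genes of these lists with enough counts, 3 were 2-fold apart between the libraries. The share was 11.5% over all protein-coding genes tested and 1.0% over the detected ones alone. Plcb2 (log2 ratio 2.57) and Pcp2 (1.62) were higher in replicate 2, and Rgs9bp (-1.27) in replicate 1. Only Pcp2 of these was among the 36 detected genes of the lists. Pcp2, a regulator of Gi and Go, stood at 2.22 and 6.08 TPM and is also 1 of the 4 genes in the Purkinje sum above. Outside the rule, the GTPase gene Gnl1 stood at 20.2 and 21.5 TPM and Gnb1l at 1.05 and 1.53.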

How the data were processed

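The 2 libraries of ribosomal-RNA-depleted total RNA over 200 nucleotides, stranded and with paired reads of 101 bases (per the labels), were used. Per the notes deposited with the samples, the authors quantified genes and transcripts on mm10 with GENCODE M4. Aligner and program names: not given in the sources used here. Deposited expected counts (estimated counts, which need not be whole) were rounded for scaling, the deposited TPM values gave levels, the deposited FPKM values an alternative, and the deposited percent of a gene per transcript the isoform shares. Symbols, types and coding sequences came from GENCODE M21 (GRCm38), which matched 42462 of 43346 gene identifiers. Library ratios used edgeR 4.0.16 TMM factors with a prior count of 0.5, tested on simulated data; DESeq2 1.42.0 size factors were an alternative. The text names every member, and from each pathway list its 4 most abundant genes and those below 1 TPM in both libraries; Pggt1b and Pcp2 were added after their values were seen. Markers of other cell types are named beside the members they bear on. Members, lists and pairs were chosen with earlier results of these data known. No p-value was computed, since there is 1 group. Some list genes are not reported here.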

Additional observations from a re-analysis of the deposited data

How the results depend on the processing

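The count of detected genes (37) was 31 at a minimum of 5 TPM and 38 at 0.5 TPM, with TPM rescaled over protein-coding genes and by FPKM, and 37 with either replicate left out. The count of pairs past 2-fold (13) was 13 with a pseudocount of 1, 14 to 15 with a replicate left out, 14 over protein-coding transcripts and 16 over CCDS transcripts, the last chosen after seeing the data. Gnb1 over Gnb2 reversed there, to 3.68 on the log2 scale, which the left-out transcripts of Gnb2 account for by construction. The 6 genes 2-fold apart between the libraries became 2 with a summed count of at least 100 and 2 with centred TPM + 0.1, 8 without a filter, and stayed at 6 with DESeq2 size factors or library totals; the first setting tests fewer genes. By expected count instead of TPM, the shares of the family leaders were 20.8% for Gnao1, 41.8% for Gnb2, 54.0% for Gng2 and 8.58% for Rgs3, since counts are not divided by length. Over protein-coding transcripts Gnb2 held 58.4% and Rgs3 7.83%. Leaving out a replicate gave 23.37% to 23.98% for Gnao1, 64.9% to 70.0% for Gnb2, 39.6% to 41.4% for Gng2 and 14.3% to 16.0% for Rgs3. Genes under about 100 counts, such as Gng13 and the undetected genes, are limited by depth. No paired analysis was possible because there is 1 group.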
